A study of Mus musculus with 21 samples.

Results

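Citrate synthase and 8 further genes of the mitochondrial tricarboxylic acid (TCA) cycle and its entry point were followed in the medial belly of the gastrocnemius, a calf muscle made mostly of fast fibers in the mouse. The 9 genes, Pdha1, Cs, Idh3a, Idh2, Ogdh, Dlst, Suclg1, Fh1 and Mdh2, were taken by symbol from the 40853 genes of the count table, and all 9 were among the 16129 genes that passed the filter on low counts. Each of 21 female C57BL/6NJ mice, 10 weeks old at the start, gave 1 poly(A) RNA library, with 7 libraries in each of 3 groups. Inactive mice stayed in standard housing, Active mice ran on a treadmill for 6 weeks, and Activity Reduction mice ran for 4 weeks and then stopped for 2 weeks. Sessions took place 5 days per week, lengthened over the first weeks of training to 40 min in all, and were run at about 70% of maximal speed after a warm-up. Every mouse, Inactive mice included, took a maximal running test 48 to 72 h before the muscle was collected, so the Inactive group was not free of running. Per the study's methods, mice were fasted for some hours and anesthetized with isoflurane before collection. Depth ran from 38482455 to 59785132 counts on genes per library. Every Active library (at most 49211581) was shallower than every Inactive library (at least 49284630). The muscle label held in the data: transcripts of 9 muscle genes were high in every library, led by Myh4, the myosin heavy chain of the fastest fibers, with a mean of 3728000 ± 210000 normalized counts in the Inactive group (SD, n = 7). Transcripts of 24 genes that are made mainly in the liver divided the libraries into 8 with more of them and 13 with fewer. The 8 were Inactive replicate 1, Active replicates 1 to 5 and Activity Reduction replicates 1 and 2. These 8 were also the libraries with the lowest mouse numbers, so the division followed mouse number without exception. It was uneven over the groups, with 5 Active libraries but 1 Inactive library among the 8. Liver transcripts and whatever else changed with mouse number cannot be told apart by this division. Values below are also given within it.

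The TCA cycle runs in the mitochondrial matrix. The pyruvate dehydrogenase complex turns pyruvate into acetyl-CoA, citrate synthase joins acetyl-CoA to oxaloacetate, and the remaining enzymes oxidize citrate back to oxaloacetate while passing electrons to NAD+ and FAD for the respiratory chain. Citrate synthase activity is widely used as a measure of mitochondrial content in muscle, where it is high in oxidative fibers and increases with endurance training. What was measured here was transcript abundance and not enzyme activity. In bulk tissue, fewer cells of a type and less RNA per cell cannot be told apart.

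All 9 genes are protein coding and are spread over 9 chromosomes (GRCm39 positions, GENCODE annotation). Pdha1 lies at chrX:158904237-158921426 on the minus strand, Cs at chr10:128172837-128198363 on the plus strand, Idh3a at chr9:54493575-54514730 on the plus strand and Idh2 at chr7:79741431-79765535 on the minus strand. Ogdh lies at chr11:6241551-6309233, Dlst at chr12:85157027-85182486, Suclg1 at chr6:73225365-73253894 and Mdh2 at chr5:135807292-135820882, all on the plus strand, and Fh1 at chr1:175425290-175453205 on the minus strand. Whether reads were counted by strand is not given in the sources used here, and exons of other genes lie on the opposite strand of 5 of the 9 canonical transcripts. The longest such overlaps are of Acsbg1 with 42.8% of the Idh3a transcript and of Map3k15 with 21.1% of the Pdha1 transcript. Those 2 genes averaged 15.1 and 97.1 normalized counts, and the effect of the overlaps on the counts was not tested. Coq10a averaged 9470 normalized counts and overlaps 1.9% of the Cs transcript. A related gene, Csl, matches 51.4% of the Cs transcript at up to 91.9% identity and averaged 3.26 normalized counts.

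The RefSeq promoter table (GRCm38.p6) held 8 of the 9 genes, and the 250 bases before each start were searched on both strands for short motifs of factors known to act on mitochondrial genes. The estrogen-related receptor site motif AAGGTCA was in 4.08% and the NRF1 core GCGCANGCG in 5.16% of all 32851 promoters, and the MEF2 box in 2.92%. The only match to any of them among these genes was an NRF1 core before 2 of the 6 annotated starts of Ogdh, neither of them in its canonical transcript. The window begins 982 bases inside the annotated gene, and the 3 starts in the canonical transcript had no match. It is shown here because Ogdh is 1 of the 2 genes that varied together below. The 30 bases lie at chr11:6242533-6242562 (GRCm39, plus strand), and capitals mark the core.
Ogdh, NRF1 core: taggtgttgtGCGCATGCGtaactcaactt
A match of letters is a description of the sequence and not a test of binding, and the absence of a match in such a short window says nothing of a factor.

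To compare levels between genes, counts normalized by DESeq2 size factors were divided by the length of the canonical transcript. Mdh2, the malate dehydrogenase that closes the cycle, had the highest level, 17990 ± 672 normalized counts per kilobase (SD, n = 21 libraries), and its range did not overlap that of the next gene. Cs followed with 12640 ± 394 normalized counts per kilobase and Idh3a, the catalytic subunit of the NAD+-dependent isocitrate dehydrogenase, with 12230 ± 479. Idh2, the NADP+-dependent isocitrate dehydrogenase, had 8523 ± 1410 and Pdha1, the E1 alpha subunit of pyruvate dehydrogenase, had 7851 ± 290 normalized counts per kilobase. The libraries of Cs and Idh3a overlapped, as did those of Idh2 and Pdha1, so these neighbors were not separated beyond their spread. Within a group, those of Idh3a and Idh2 overlapped only in Inactive mice, where Idh2 reached 12130 and Idh3a began at 11500. In Active mice Idh3a ran from 11820 to 12960 and Idh2 from 6078 to 10090. In the Activity Reduction group Idh3a ran from 11500 to 13150 and Idh2 from 6360 to 9016. Ogdh, the E1 subunit of 2-oxoglutarate dehydrogenase, had 6232 ± 252 and overlapped Suclg1, the alpha subunit of succinyl-CoA ligase, at 5835 ± 253 normalized counts per kilobase. Dlst, the E2 subunit of 2-oxoglutarate dehydrogenase, had 3930 ± 140. The lowest level was that of Fh1, fumarate hydratase, with 1724 ± 48.3 normalized counts per kilobase. The order depended on the length used: over the union of all annotated exons Cs came first, then Mdh2 and then Ogdh, while Suclg1, Dlst and Fh1 stayed last, in that order.

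The subunits of 1 enzyme were not always equally abundant. Among the subunits of isocitrate dehydrogenase, Idh3b had 12350 and Idh3g 10370 normalized counts per kilobase beside Idh3a. The libraries of Idh3a and Idh3b overlapped on this scale. Over the union of all annotated exons, Idh3a had 3860, Idh3b 4794 and Idh3g 3170 normalized counts per kilobase. Of succinyl-CoA ligase, Sucla2, the subunit that makes the enzyme ADP-specific, had 6994 normalized counts per kilobase and Suclg2, its GDP-specific counterpart, had 1059.

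**Figure D1:**
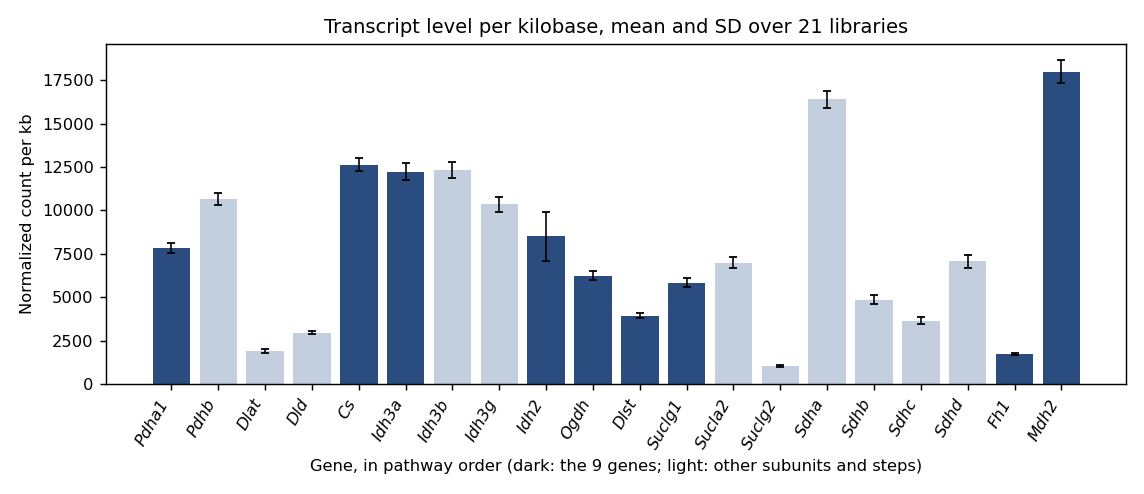
Mean normalized count per kilobase of canonical transcript (bars, linear axis from 0) with the SD over 21 libraries (error bars) for the 9 genes (dark) and the other subunits and steps of the same pathway (light). Mdh2 stands highest of the 9 at 17990 and Fh1 lowest at 1724, and Idh2 has the widest error bar of the 9.

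None of the 9 genes passed the threshold in any comparison (edgeR's quasi-likelihood test, Benjamini-Hochberg adjusted p under 0.05 and a log2 fold change over 0.25 in either direction). The same thresholds called 0% of the 16129 genes in Active against Inactive mice, 0.0124% (2 genes) in Activity Reduction against Inactive mice and 0% in Activity Reduction against Active mice. By edgeR, 1754, 1247 and 2149 genes in turn had an unadjusted p under 0.05. DESeq2 on the 21 libraries called 62, 21 and 115 genes in the same comparisons, and none of the 9 was among them. At an unadjusted p under 0.05, 0 of the 9 were higher and 0 lower in Active against Inactive mice, where 6.18% of all genes were higher and 4.69% lower. In Activity Reduction against Inactive mice 0 were higher and 1 (Idh2) was lower, where 4.19% of all genes were higher and 3.54% lower. Against the Active group 0 were again higher and 1 (Idh2) lower, where 6.89% of all genes were higher and 6.44% lower. The median log2 fold change of the 9 genes was 0.0223, 0.000495 and -0.0218 in these 3 comparisons, and that of all tested genes was 0.00523, 0.00571 and -0.000647. The comparisons share groups and are therefore not independent of each other.

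**Figure D2:**
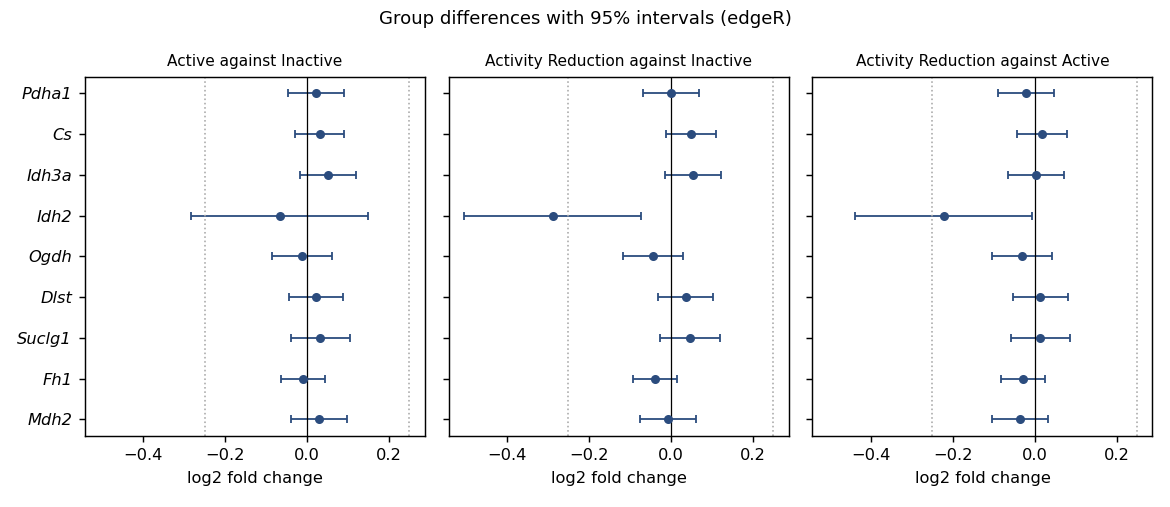
Log2 fold change of each of the 9 genes (points) with its 95% interval (bars) from the edgeR model in the 3 comparisons. Dotted lines mark the threshold of 0.25 in either direction, and 8 of the 9 genes have intervals that lie within it in every panel, while that of Idh2 reaches past it.

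For citrate synthase, Cs, normalized counts in the Inactive group ran from 35931 through a median of 37011 to 37182. In Active mice they ran from 35905 through 37583 to 39371, and in the Activity Reduction group from 35958 through 38400 to 38966. The groups overlapped, but 5 of the 7 Activity Reduction libraries lay above every Inactive library. Of the 7 Active libraries, 4 also lay above every Inactive library and 2 lay below them all. For such counts of part of a group, here and below, the share over all genes was not computed. The mean was 36710 ± 530 in the Inactive, 37340 ± 1370 in the Active and 37870 ± 1250 in the Activity Reduction group (SD, n = 7 each). Against the Inactive group, the Active group differed by a log2 fold change of 0.03 (SE 0.0292), an interval of -2.04% to 6.54%. The Activity Reduction group differed by 0.05 (SE 0.0292), an interval of -0.772% to 7.92%, with an adjusted p of 0.74 from edgeR. An exact permutation test of the 7 against 7 libraries, two-sided, gave p = 0.0414 for this last difference, unadjusted and 1 of 27 such tests over genes and comparisons. With CPM, counts scaled to the library total, the same exact test gave p = 0.83, and with library totals in edgeR the log2 fold change was 0.0046.

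Among the 13 libraries poorer in liver transcripts, a split examined for overlap after the values were seen, the 5 Activity Reduction libraries held between 38304 and 38966 normalized counts of Cs and the 6 Inactive libraries between 35931 and 37182. These did not overlap. The same was true, in that direction, of 0.378% of all genes tested, and of none of the other 8. The 2 Active libraries in this set averaged 38640 normalized counts. In the 8 libraries with more liver transcripts, Cs was at 36555 in the 1 Inactive library, at 36810 ± 1160 in 5 Active libraries (SD) and at 36080 in the mean of 2 Activity Reduction libraries. In CPM, the 5 and 6 libraries overlapped, at 742 to 778 and 722 to 766. The separation therefore depended on the scaling and on which libraries were compared, and the part of either was not tested further.

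At the isocitrate step the paired enzymes differed in how much they varied. Idh3a, which feeds NADH to the respiratory chain, had a mean of 30950 ± 966 normalized counts in the Inactive, 31910 ± 1100 in the Active and 32040 ± 1470 in the Activity Reduction group (SD, n = 7 each). Its log2 fold change was 0.05 against the Inactive group in the Active group (adjusted p = 0.585, edgeR) and also 0.05 in the Activity Reduction group (adjusted p = 0.748), the highest of the 9 genes in both, although with library totals in place of TMM the latter was 0.01.

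Idh2 makes NADPH in the matrix, where it supports glutathione and thioredoxin, and is abundant in oxidative muscle and heart. Its normalized counts ran from 13618 through a median of 15700 to 21210 in the Inactive group. In Active mice they ran from 10625 through 15606 to 17632, and in the Activity Reduction group from 11116 through 12815 to 15760. The lowest value of all was Active replicate 3, the highest was Inactive replicate 4, and 4 of the 7 Activity Reduction libraries lay below every Inactive library, although the groups overlapped. The means were 16160 ± 2510, 15350 ± 2380 and 13180 ± 1640 in that order of groups (SD, n = 7 each).

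The Activity Reduction group differed in Idh2 from the Inactive group by a log2 fold change of -0.29 (SE 0.104), or -18.1% with an interval of -29.5% to -4.92%. The unadjusted p was 0.0111 and the adjusted p 0.495 in the edgeR model of all genes, and the exact permutation test gave p = 0.0157 for the 7 against 7 libraries. Against the Active group the difference was -0.22 (SE 0.104), with an unadjusted p of 0.0446 and an adjusted p of 0.359 by edgeR, and the exact permutation test gave p = 0.0746. The Active group differed from the Inactive group by -0.07 (SE 0.104), with an interval of -17.8% to 10.9%, and the sign turned under several alternatives (0.05 with the liver division as covariate, 0.04 in the libraries with fewer liver transcripts). No difference in Idh2 passed adjustment over all genes. In the 13 libraries with fewer liver transcripts, Idh2 averaged 16580 ± 2460 in 6 Inactive and 13630 ± 1760 in 5 Activity Reduction libraries (SD), and the 2 Active libraries held 16769 and 17226.

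**Figure D3:**
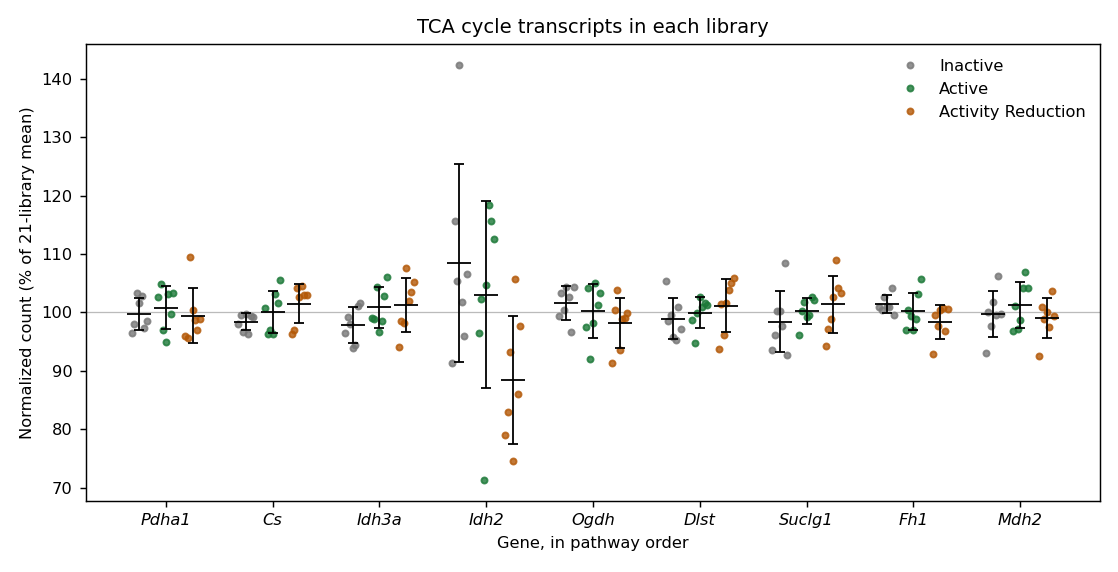
Normalized count of each gene in each library (points) as a percentage of that gene's mean over 21 libraries, with group means and SD (horizontal marks and bars), in pathway order; the vertical axis does not start at 0. Idh2 spreads far more widely than the other 8, with its lowest library in the Active group and its highest in the Inactive group.

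At the 2-oxoglutarate dehydrogenase step, Ogdh ran from 40936 through a median of 43488 to 44251 normalized counts in the Inactive group, from 39018 through 42905 to 44481 in the Active group and from 38741 through 41986 to 44020 in the Activity Reduction group. The groups overlapped, with 2 Activity Reduction libraries below every Inactive library, and 1 Active library below and 1 above them all. Its log2 fold change was -0.04 in Activity Reduction against Inactive mice (SE 0.0353, adjusted p = 0.831, edgeR), and -0.09 with library totals in place of TMM (adjusted p = 0.376). Dlst, which carries the lipoyl group of the same complex, had means of 13020 ± 457, 13150 ± 345 and 13300 ± 597 normalized counts in the Inactive, Active and Activity Reduction groups (SD, n = 7 each), and its 3 intervals all lay between -3.59% and 7.37%.

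After the 2-oxoglutarate step, Suclg1, Fh1 and Mdh2 also varied little. Suclg1 averaged 8725 ± 468 normalized counts in the Inactive, 8883 ± 199 in the Active and 8984 ± 440 in the Activity Reduction group (SD, n = 7 each), and its log2 fold changes were 0.03, 0.05 and 0.01 in the 3 comparisons. Fh1 ran from 9081.9 through a median of 9203.2 to 9507.5 in the Inactive group, from 8844.6 through 9059.7 to 9635.8 in the Active group and from 8474.7 through 9080.7 to 9196.4 in the Activity Reduction group. In Fh1, 4 of 7 Activity Reduction libraries lay below every Inactive library, and so did 4 of 7 Active libraries, while 1 Active library lay above them all. Between the Activity Reduction and Inactive groups the log2 fold change was -0.04 (SE 0.026), with an interval of -6.23% to 1.06% and an adjusted p of 0.791 by edgeR (-0.08 with library totals in place of TMM). The exact permutation test of this difference gave an unadjusted p of 0.0175. Mdh2 averaged 26940 ± 1080, 27360 ± 1060 and 26750 ± 929 normalized counts in the 3 groups in the same order (SD, n = 7 each), with intervals between -6.91% and 6.99%.

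At the entry to the cycle, Pdha1 averaged 22420 ± 630 normalized counts in the Inactive, 22670 ± 837 in the Active and 22360 ± 1070 in the Activity Reduction group (SD, n = 7 each). Its log2 fold change between the Activity Reduction and Inactive groups was 5e-04, with an interval of -4.61% to 4.91%. Of the 27 exact permutation tests over the 9 genes and 3 comparisons, 3 gave p under 0.05, those of Cs, Idh2 and Fh1 in Activity Reduction against Inactive mice. With CPM in place of normalized counts 8 did, and they differed: Cs was not among them, and Idh2, Ogdh, Fh1 and Mdh2 were, each in the Activity Reduction group against both others. The smallest p that 7 against 7 libraries allow is 0.000583, and in all 27 the groups overlapped.

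Over the 21 libraries, 8 of the 9 genes had a coefficient of variation between 2.8% (Fh1) and 4.33% (Suclg1). Counting error alone would give between 0.483% and 1.06%. The median over 1136 genes with a mean of at least 5000 normalized counts was 6.63%, and 99.6% of these abundant genes varied more than Fh1 and 98.2% more than Cs. Idh2 had a coefficient of variation of 16.5%, which 5.99% of abundant genes exceeded. Its highest library held 2.0 times the count of its lowest, where the same ratio was 1.1 for Cs and at most 1.17 for the rest.

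Idh2 and Ogdh varied together. Over 21 libraries their normalized counts on a log2 scale had r = 0.777 (permutation test, p = 7e-05, adjusted p = 0.00252 over the 36 pairs of the 9 genes) and rho = 0.717. With group means removed r was 0.746, without the 2 libraries farthest from the median of the first gene it was 0.718, and it was 0.812 in the 8 libraries with more and 0.725 in the 13 with fewer liver transcripts. No other pair passed the adjustment, and the median r of the 36 pairs was 0.356. Once group means were removed, Suclg1 with Fh1 (r = 0.655) and Idh3a with Fh1 (r = 0.648) also passed it, but within the 8 and 13 libraries r was 0.34 and 0.269 for the former and 0.525 and 0.124 for the latter.

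The abundance of slow fiber transcripts also differed between libraries and moved with Idh2 and Ogdh. The summed normalized count of 8 genes of slow oxidative fibers was 119500 ± 10400 in the Inactive, 105200 ± 27200 in the Active and 79360 ± 30600 in the Activity Reduction group (SD, n = 7 each). It was lowest in Activity Reduction replicate 4 (34256), replicate 1 (47677) and replicate 2 (67237) and in Active replicate 3 (51407). Its most abundant gene was Atp2a2, the slow calcium pump, at 31110 ± 2820, 26210 ± 7050 and 19090 ± 7050 normalized counts in the 3 groups. Myh7, the slow myosin heavy chain, averaged 27990 ± 3150, 23940 ± 7440 and 16720 ± 7900 normalized counts. All 8 slow genes had a lower value in the Activity Reduction group than in the Inactive group, 5 of them at an unadjusted p under 0.05 and 0 past the adjusted threshold by edgeR, with a median log2 fold change of -0.61. Of all genes tested in this comparison, 47.8% had a lower value and 3.54% were lower at an unadjusted p under 0.05. DESeq2 on the 21 libraries called 1 of the 8 slow genes, Atp2a2 (log2 fold change -0.70, adjusted p = 0.0454). On the 14 libraries of this comparison it called 0 of them.

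The log2 ratio of this sum to that of 8 fast fiber genes averaged -6.2 ± 0.117 in the Inactive, -6.49 ± 0.456 in the Active and -6.96 ± 0.596 in the Activity Reduction group (SD, n = 7 each). The last differed from the Inactive group by an exact permutation test (two-sided, p = 0.00117, adjusted p = 0.00351 over 3 comparisons), with overlapping libraries. The other comparisons gave p = 0.0659 and, between the Activity Reduction and Active groups, p = 0.118 by the same exact test. In the 13 libraries with fewer liver transcripts the means were -6.19, -6.26 and -6.83.

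Across the 21 libraries, Idh2 correlated with this ratio (r = 0.799, permutation p = 3e-05, adjusted p = 0.00027 over the 9 genes, and rho = 0.636 with p = 0.0025). Without the 2 libraries farthest from the median ratio r was 0.685, with group means removed 0.713, and within the 8 and 13 libraries 0.776 and 0.786. Ogdh gave r = 0.7 (permutation p = 0.00091, adjusted p = 0.00409) but rho = 0.427 (p = 0.0539), and 0.514 without the 2 farthest libraries. The other 7 genes, Cs included (r = 0.0669), had adjusted p-values of r of at least 0.249. Among them Fh1 gave r = 0.391 but rho = 0.482 (permutation p = 0.0291, unadjusted), and 0.601 without the 2 farthest libraries. For Fh1 r was 0.163 with group means removed, and 0.317 and 0.306 within the 8 and 13 libraries. With group means removed Cs gave r = 0.439 (permutation p = 0.0452, adjusted p = 0.136 over the 9 genes). Within the 8 and 13 libraries its r was 0.331 and -0.297. With the ratio as a covariate, a fit chosen after the values were seen, the log2 fold change of Idh2 in the Activity Reduction group was -0.03 against the Inactive group (adjusted p = 0.974) and -0.06 against the Active group (adjusted p = 0.827, edgeR). The ratio itself differed between the groups, so a covariate that moves with the group cannot be told apart from it, and the part of fiber makeup in the Idh2 values was not tested.

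**Figure D4:**
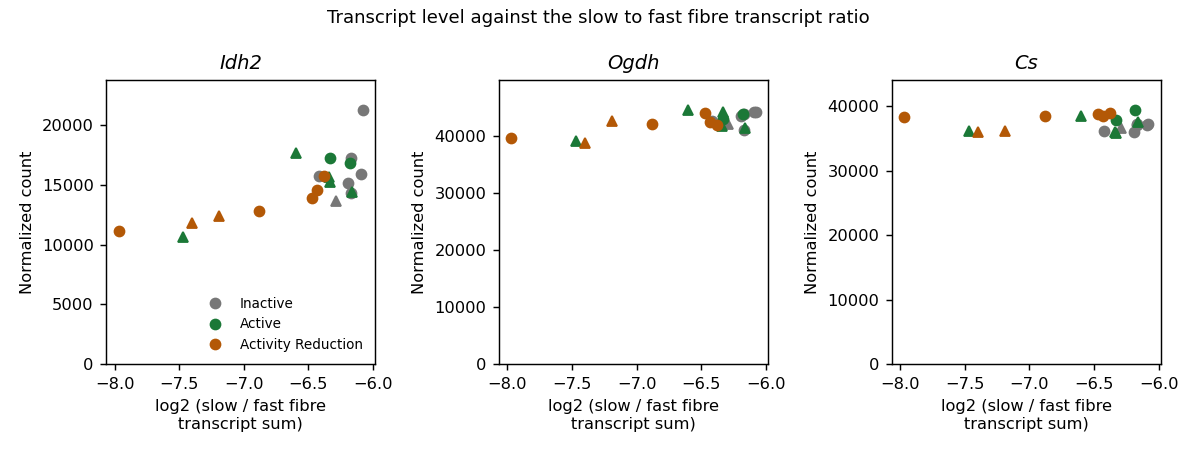
Normalized count of Idh2, Ogdh and Cs (vertical axes from 0) against the log2 ratio of summed slow to summed fast fiber transcripts in each of 21 libraries, colored by group; triangles are the 8 libraries with more liver transcripts and circles the 13 with fewer. The libraries with the lowest ratios have the lowest Idh2, whereas Cs shows no such slope over all 21 libraries (r = 0.799 and 0.0669). With group means removed, r was 0.713 for Idh2 and 0.439 for Cs.

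Of the further cycle enzyme genes described here, 0 passed the threshold in any comparison, by edgeR or by DESeq2. Of succinate dehydrogenase, which also serves the respiratory chain as complex II, Sdha averaged 50800 ± 1190 normalized counts in the Inactive, 50550 ± 2030 in the Active and 49880 ± 1100 in the Activity Reduction group (SD, n = 7 each). Sdhc averaged 11860, 11830 and 11510, and Sdhd 8700, 8954 and 8983. Sdhb, its iron-sulfur subunit, gave a log2 fold change of -0.09 in Activity Reduction against Active mice, and Mrps36, a small subunit that tethers the 2-oxoglutarate dehydrogenase complex, gave 0.11. Both had an unadjusted p under 0.05 and neither passed adjustment.

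Of 11 genes of the pyruvate dehydrogenase complex and its regulators, 0 passed by either tool. Pdhb, the E1 beta partner of Pdha1, averaged 16060 ± 467, 16100 ± 482 and 16530 ± 480 normalized counts in the Inactive, Active and Activity Reduction groups (SD, n = 7 each). Pdk4, the kinase that switches the complex off during fasting, was the most abundant gene of the list and varied widely within every group, with means of 26350 ± 5890, 23360 ± 8790 and 23500 ± 8830 normalized counts. Pdk3, a much rarer kinase of the family at 48.87 to 60.84 normalized counts in the group means, gave a log2 fold change of -0.32 in Activity Reduction against Active mice, with an unadjusted p under 0.05.

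For transcripts around the export of citrate, the tools differed: 0 genes passed the threshold by edgeR, and Acly passed it by DESeq2. Slc25a1, the mitochondrial citrate carrier, averaged 154.7 ± 71.9 normalized counts in the Inactive, 276.4 ± 98.9 in the Active and 172.1 ± 49.4 in the Activity Reduction group (SD, n = 7 each). Its log2 fold change was 0.84 in Active against Inactive mice (adjusted p = 0.324, edgeR). Acly, which splits exported citrate into acetyl-CoA for lipid synthesis, ran from 731.29 through a median of 797.91 to 1082.8 normalized counts in the Inactive, from 899.07 through 1164.1 to 1723.6 in the Active and from 754.61 through 825.5 to 878.14 in the Activity Reduction group. All 7 Active libraries of Acly thus lay above all 7 Activity Reduction libraries, as they did for 0.112% of all genes tested. Its log2 fold change was 0.54 in Active against Inactive mice (adjusted p = 0.159) and -0.58 in Activity Reduction against Active mice (adjusted p = 0.075, edgeR). DESeq2 on the 21 libraries called both, with adjusted p-values of 0.0103 and 0.0014. The study lists Acly from these samples, so it is not independent evidence.

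Among 10 genes that refill the cycle or exchange its intermediates with amino acids and ketone bodies, Oxct1, which activates ketone bodies for the cycle, averaged 18690 ± 1030 normalized counts in the Inactive, 18170 ± 1080 in the Active and 16440 ± 1530 in the Activity Reduction group (SD, n = 7 each). It gave a log2 fold change of -0.18 in Activity Reduction against Inactive mice (adjusted p = 0.349, edgeR). Gpt2, the mitochondrial alanine aminotransferase, averaged 14370 ± 2760, 11650 ± 2040 and 14560 ± 1110 normalized counts and gave a log2 fold change of -0.30 in Active against Inactive and 0.32 in Activity Reduction against Active mice, with unadjusted p-values under 0.05 by edgeR, and DESeq2 called the latter on the 14 libraries of that comparison (adjusted p = 0.0276) but not on all 21. Slc25a12, an aspartate and glutamate carrier, gave 0.11 in Activity Reduction against Inactive mice. Of 13 protein-coding genes of the mitochondrial genome 0 passed by either tool, with median log2 fold changes of -0.03, 0.01 and 0.06 in the 3 comparisons.

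**Figure D5:**
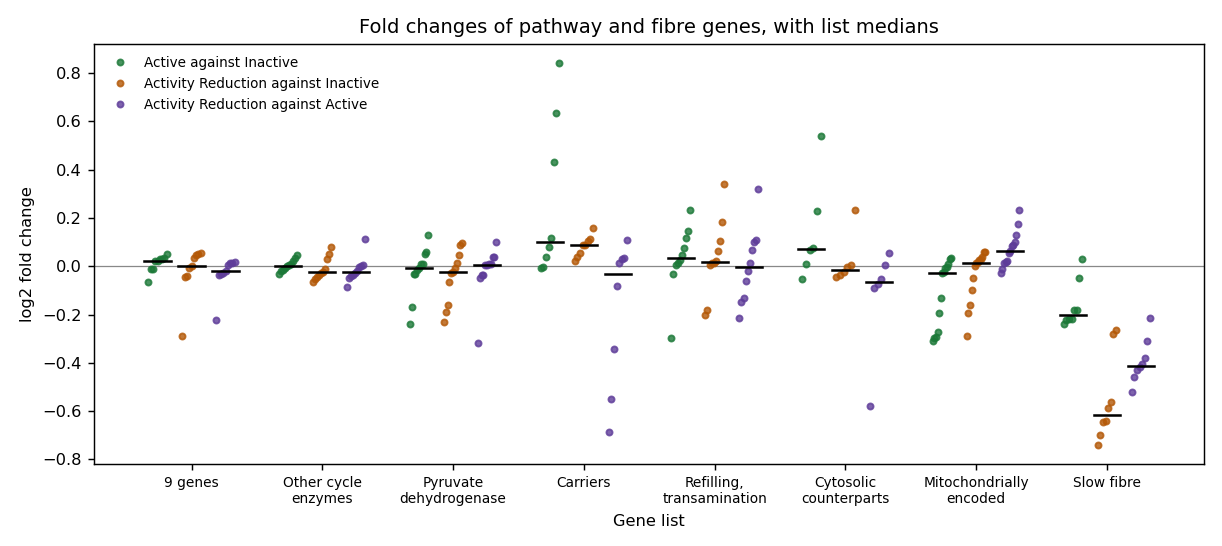
Log2 fold change of each gene (points) with the list median (black lines) for the 9 genes, the other pathway lists, the mitochondrially encoded genes and the slow fiber genes, in the 3 comparisons. The medians of the cycle and pyruvate dehydrogenase lists sit close to 0, and that of the slow fiber list is -0.61 in Activity Reduction against Inactive mice.

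Transcripts of other cell types were present in every group, and no gene of their lists passed the threshold by edgeR in any comparison. DESeq2 on the 21 libraries called Kdr, an endothelial gene, and Csf1r, a macrophage gene, both lower in Activity Reduction than in Active mice (log2 fold changes of -0.42 and -0.74, adjusted p = 0.011 and 0.00711), and on the 14 libraries of that comparison also Mrc1, Col1a1 and Col1a2. The 24 liver genes summed to 28500 ± 39200 normalized counts in the Inactive, 61310 ± 38400 in the Active and 32480 ± 31000 in the Activity Reduction group (SD, n = 7 each), led by Alb at means of 12850, 26960 and 14150. All 9 genes had a lower mean in the 8 libraries with more liver transcripts than in the 13 with fewer, by log2 ratios from -0.01 (Dlst) to -0.16 (Idh2). With the division as a covariate the log2 fold change of Idh2 in the Activity Reduction group was -0.26 against the Inactive group (adjusted p = 0.442) and -0.31 against the Active group (adjusted p = 0.265, edgeR). The 5 fibroblast genes, led by Dcn, summed to 12230 ± 2410, 14880 ± 2360 and 10920 ± 1140 normalized counts. The 6 endothelial genes, led by Cdh5, summed to 8749 ± 669, 9702 ± 750 and 8353 ± 428, and the 5 macrophage genes, led by Mrc1, to 850.6 ± 160, 1077 ± 186 and 822.2 ± 184. The 8 adipocyte genes, led by Fabp4, summed to 6481 ± 1520, 6660 ± 1470 and 6020 ± 806, and the 5 red cell genes, led by Hbb-bs, to 3079 ± 719, 3637 ± 476 and 3705 ± 911. No gene of these lists was at 0 in every library. Their part in the values of the 9 genes was not tested, apart from the liver division, which also followed mouse number.

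Among 7057 genes with a mean of at least 500 normalized counts, those whose pattern over the 21 libraries was most like the mean of the 9 genes were Atp5a1 (r = 0.797) and Atp5b (r = 0.776), which encode the alpha and beta subunits of ATP synthase. They were followed by Ndufv2 (r = 0.75) and Ndufb3 (r = 0.743) of complex I, Egln1 (r = 0.744), Fndc5 (r = 0.743), Rpl3l (r = 0.726), Mb (r = 0.724), Fxyd6 (r = 0.716) and Apol6 (r = 0.714). Likeness was Pearson's r of log2 normalized counts, and the libraries differ in depth and liver division. The median r of all these genes with the mean of the 9 was 0.0207. For Cs alone the genes most alike were Coq6 of ubiquinone synthesis (r = 0.845), Ppargc1a, the coactivator PGC-1 alpha (r = 0.749), Klf9 (r = 0.744), Ckmt2, the mitochondrial creatine kinase of muscle (r = 0.741), and Wwc2 (r = 0.716).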

How the data were processed

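Per the study's methods, the authors used fastp for trimming, STAR for alignment to GRCm39 and featureCounts for gene counts (versions, annotation and strand setting not given in the sources used here). The deposited values are counts per gene, without normalization, for 21 libraries, 1 per mouse. The deposited table that its name presents as normalized was identical to the raw one and was not used. The number of columns left unused was 0. Differences were tested with edgeR 4.0.16 (quasi-likelihood, TMM, filterByExpr, all 21 libraries, group as the only term), with Benjamini-Hochberg adjustment over 16129 genes, and with DESeq2 1.42.0 as an alternative. Normalized counts are counts divided by DESeq2 size factors. Exact permutation tests and correlations used scipy 1.17.1 (Python 3.11.15), with a pseudocount of 0.5 on the log2 scale and 100000 resamples for correlations. Related sequences were sought with blastn 2.17.0. The edgeR step was tested on simulated data. Intervals are 95%.

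The 9 genes and all gene lists were chosen with earlier results of these data known. Of the other pathway genes, those named were the succinate dehydrogenase subunits, Pdk4 and Pdhb, and up to 12 with an unadjusted p under 0.05 in any comparison, and 1 further gene set by the rule is not reported here. Among the genes most alike, the first 10 for the 9 genes and the first 5 for Cs were named. No 2 libraries of a group agreed within sampling noise (smallest chi-square per degree of freedom 10.9 over 63 pairs). Depth, 38482455 to 59785132 counts per library, leaves a counting error of at most 1.22% per library for each of the 9 genes (Suclg1 in Active replicate 2, 6679 counts). Alternatives were other normalizations and filters, the 14 libraries of each comparison alone, the liver division, a replicate block and leaving out each library.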

Additional observations from a re-analysis of the deposited data

Results flagged for a closer look

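Over the 9 genes and 3 groups, 27 sets of 7 libraries were examined for a library far from the others by Dixon's criterion, which chance alone passes in about 1 of 20 sets, and 1 set passed. In the Activity Reduction group, replicate 3 held 24614 normalized counts of Pdha1, above the group median of 22207 and the highest value of the gene in any library. It lies among the 13 libraries with fewer liver transcripts. Without it, the log2 fold change of Pdha1 between the Activity Reduction and Inactive groups was -0.0291 in place of 5e-04, with an adjusted p of 0.839 by edgeR.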

How the results depend on the processing

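None of the 9 genes was called under any alternative run. Of 837 comparisons of a gene's fold change with another setting, 0 crossed the threshold and 59 turned the sign, all to log2 fold changes of at most 0.0513 in size under the alternative, and the cause was not tested. Genes called over all genes moved most with DESeq2: 62 on 21 libraries and 77 on 14 in Active against Inactive mice (3 by edgeR on 14), 21 and 43 in Activity Reduction against Inactive mice, and 115 and 139 in Activity Reduction against Active mice. For Activity Reduction against Inactive mice, edgeR called 0 with DESeq2 size factors, 5 with library totals, 0 on 14 libraries, 1 with the liver division as covariate, 0 in the libraries with fewer liver transcripts alone, 4 with the replicate block and 0 with the fiber ratio as covariate, which was added after the data were seen. Against the Active group it called 1 with DESeq2 size factors and 1 with the fiber ratio. Leaving out 1 library gave 0 to 1, 0 to 6 and 0 to 9 genes in the 3 comparisons (6 without Active replicate 3, 9 without Activity Reduction replicate 7). Replicate numbers did not pair the samples: same-numbered libraries deviated from their group means with r from -0.245 to 0.408, over 0.1 in 7 of 21 pairs, and the replicate block turned no sign of the 9 genes.

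In Active against Inactive mice, log2 fold changes that turned were 0.0513 (Idh2), 0.0078 (Ogdh) and 0.0146 (Fh1) with the liver division as covariate, 0.0396, 0.0085 and 0.0447 in the libraries with fewer liver transcripts, and 0.0261 (Idh2) and 0.0123 (Ogdh) with the fiber ratio. Leaving out 1 library gave -0.1072 to 0.0073 for Idh2 (0.0054 without Active replicate 3) and -0.0278 to 0.0067 for Ogdh. In Activity Reduction against Inactive mice, Pdha1 was at -0.004 and -0.0051 with DESeq2 on 21 and 14 libraries, -0.0077 without the filter, -0.0038 with DESeq2 size factors, -0.0441 with library totals and -0.0065 on 14 libraries, and between -0.0291 and 0.0093 without 1 library. Library totals lowered all 9 genes in this comparison, to 0.0046 for Cs, 0.0097 for Idh3a, 0.0025 for Suclg1, -0.0835 for Fh1, -0.0896 for Ogdh, -0.0505 for Mdh2 and -0.334 for Idh2, and in the next one Ogdh to -0.0703. Dlst was at -0.0093 with library totals, Mdh2 at 0.0048 with the liver division and 0.0152 with the fiber ratio (-0.0227 to 0.0041 without 1 library), and Ogdh at 0.0225 with the fiber ratio. In Activity Reduction against Active mice, library totals gave -0.0205 for Cs, -0.0356 for Idh3a, -0.0257 for Dlst and -0.0249 for Suclg1. The liver division gave -0.0071 for Cs, -0.0245 for Idh3a and -0.0183 for Suclg1, and the libraries with fewer liver transcripts gave -0.0075 for Cs and -0.0207 for Idh3a. Idh3a was at -0.0026 on 14 libraries and -0.0035 with the fiber ratio, and Ogdh at 0.0102 with the fiber ratio. Without 1 library the ranges were -0.0142 to 0.0153 for Idh3a, -0.0026 to 0.0257 for Dlst and -0.0033 to 0.0253 for Suclg1. Idh2 kept its sign in both comparisons of the Activity Reduction group, from -0.3363 to -0.2194 against the Inactive and from -0.2942 to -0.1879 against the Active group without 1 library. By CPM, exact permutation tests of the Activity Reduction group also gave p under 0.05 for Ogdh (0.0122) and Mdh2 (0.0291) against the Inactive group and for Idh2 (0.042), Ogdh (0.0478), Fh1 (0.00816) and Mdh2 (0.00932) against the Active group.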

Other observations

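The genes most like Idh2 over the 21 libraries, sought after its spread was seen, were Nnt, the nicotinamide nucleotide transhydrogenase that also makes NADPH in the matrix (r = 0.94), and Ldhb, the heart form of lactate dehydrogenase (r = 0.935). They were followed by Lpl, lipoprotein lipase (r = 0.855), Myh7b, a slow-type myosin heavy chain (r = 0.824), and Pcp4l1 (r = 0.812). The libraries differ in depth, group and liver division, and no test was made of these values. Ldhb averaged 9404 ± 1180 normalized counts in the Inactive, 8760 ± 1290 in the Active and 7517 ± 974 in the Activity Reduction group (SD, n = 7 each). Nnt averaged 10240 ± 1020, 9905 ± 1260 and 9362 ± 946 in the same order. The lowest library of both in the Active group was replicate 3, as for Idh2.

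Mb, which encodes myoglobin and was among the genes most like the 9 as a group, averaged 77220 ± 6700 normalized counts in the Inactive, 85960 ± 9260 in the Active and 82400 ± 5840 in the Activity Reduction group (SD, n = 7 each).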
